A study of Mus musculus with 12 samples.

Results

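The cytokines of the interleukin-6 (IL-6) family, the receptors through which they signal, the transcription factor STAT3 and its inhibitor SOCS3 were followed in ATDC5 cells, a mouse teratocarcinoma line used as a model of cartilage formation. The 10 genes were taken by symbol from a gene table of 46731 genes. They were the ligands *Il6*, *Lif*, *Il11* and *Clcf1*, the receptor chains *Il6st*, *Il6ra*, *Osmr* and *Lifr*, and *Stat3* and *Socs3*. RNA was sequenced from 12 cultures, 3 in each of 4 groups. The groups were shRNA-NC cells and shRNA-*Ddx5* cells in medium, and both kinds of cells after 6 h with TNF-α at 25 ng/ml and IL-1β at 5 ng/ml (together called the cytokines). All cells carried a lentiviral U6 hairpin cassette with a CMV-driven puromycin resistance gene and had been selected with puromycin. The shRNA-NC cells held the control vector, and their genotype is labelled wildtype. The shRNA-*Ddx5* cells were a stable line with a hairpin against *Ddx5*, which encodes an RNA helicase. One vector against *Ddx5* is described, so an effect of the loss of *Ddx5* and another effect of that hairpin or line cannot be told apart.

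Ligands of this family use receptor complexes that contain gp130, the signal-transducing chain encoded by *Il6st*. IL-6 and IL-11 first bind their own alpha chains (for IL-6 the product of *Il6ra*), and CLCF1 uses the alpha chain of the CNTF receptor together with gp130 and the LIF receptor. LIF signals through gp130 paired with the LIF receptor, and oncostatin M through gp130 paired with the oncostatin M receptor or the LIF receptor. The complexes activate JAK kinases, which phosphorylate STAT3, and STAT3 induces *Socs3*, whose product binds gp130 and JAKs and shuts the signal off. In joints, IL-1β and TNF-α are known inducers of *Il6* and *Lif* in chondrocytes and synovial cells.

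Values were FPKM (fragments per kilobase of gene length, scaled for library depth in the deposited table), so that levels can be compared between genes per length. Library depth ran from 14119199 to 19276520 fragments on genes, and shRNA-NC medium replicate 3 was the shallowest. The targeted gene followed the labels. In medium *Ddx5* ranged from 294 to 337 FPKM in shRNA-NC cells and from 90.7 to 118 in shRNA-*Ddx5* cells. With cytokines the ranges were 301 to 327 and 93.6 to 104. Unless another setting is named, log2 fold changes are differences of log2(FPKM + 1), which understate changes of low genes. Fold values are ratios of mean FPKM, or of a mean to a floor. The log2 fold change of *Ddx5* was -1.63 (SE 0.10) in both conditions (limma, adjusted p = 9.5e-07 without and 9.1e-07 with cytokines). By the exact two-sided permutation test p was 0.1 in each condition, the smallest that 3 libraries against 3 allow. *Nfkbia*, a gene that NF-κB induces in response to both cytokines, rose 9.52-fold in shRNA-NC cells and 7.49-fold in shRNA-*Ddx5* cells.

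Of 8 chondrocyte markers, *Sox9* (5.08 to 27.8 FPKM), *Col2a1* (0.735 to 15.04) and *Col11a1* (0.177 to 5.24) reached 1 FPKM in 3 or more libraries. *Acan*, *Comp*, *Matn3*, *Hapln1* and *Col9a1* were at most 0.333 FPKM in every library. The summed level of this list was 38.0 to 43.3 FPKM in shRNA-NC and 29.1 to 32.1 in shRNA-*Ddx5* cells in medium, and 12.3 to 17.6 and 9.49 to 9.51 with cytokines. Its members moved in opposite directions after knockdown: *Col2a1* was 13.8-fold lower and *Col11a1* 5.32-fold higher in medium, and with cytokines *Col2a1* was 8.13-fold lower and *Col11a1* 10.7-fold higher. The 10.7-fold value rests on shRNA-NC libraries with 24 to 63 *Col11a1* fragments (0.177 to 0.414 FPKM). The cells are called ATDC5 cells here, since several markers of cartilage matrix were near 0. The mesenchymal list (*Col1a1*, *Col1a2*, *Pdgfra*, *Pdgfrb*, *Thy1*, *Vim*) summed to between 2027 and 2517 FPKM in shRNA-NC and between 3004 and 3202 in shRNA-*Ddx5* cells in medium, and to between 1327 and 1525 and between 1988 and 2266 with cytokines. Within it *Col1a1* and *Col1a2* rose (2.45 and 1.80 on the log2 scale in medium, 3.00 and 2.07 with cytokines) and *Vim* fell (-0.41 and -0.68) after knockdown. The leukocyte markers *Ptprc* and *Cd3e* were listed at 0 in all libraries, and *Cd14* was the main part of a leukocyte list of 8 genes that summed to at most 11.7 FPKM. No endothelial marker was above 3 fragments in every library of any group. The part of these marker levels in the results below was not tested.

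The bases just before the start of *Il6*, *Lif* and *Socs3* are shown as examples. These genes responded to the cytokines and hold matches to the motifs of the factors that IL-1β, TNF-α and IL-6 are known to activate. Other members also held such matches. RefSeq promoter sequences (GRCm38.p6, 250 bases before to 50 after a start) were found for 9 of the 10 genes, with 11 starts. The 250 bases were located in GRCm39 by an exact match, at chr5:30217862-30218111 on the plus strand for *Il6*, chr11:4207318-4207567 on the plus strand for *Lif* and chr11:117860193-117860442 on the minus strand for *Socs3*. They run 5′ to 3′ up to the base before the start, with motif matches in capitals.
Il6: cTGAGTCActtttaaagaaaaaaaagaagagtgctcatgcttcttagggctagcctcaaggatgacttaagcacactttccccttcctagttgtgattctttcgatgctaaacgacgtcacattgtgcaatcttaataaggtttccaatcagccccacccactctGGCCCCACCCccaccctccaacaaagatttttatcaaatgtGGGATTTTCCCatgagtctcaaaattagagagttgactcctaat
Lif: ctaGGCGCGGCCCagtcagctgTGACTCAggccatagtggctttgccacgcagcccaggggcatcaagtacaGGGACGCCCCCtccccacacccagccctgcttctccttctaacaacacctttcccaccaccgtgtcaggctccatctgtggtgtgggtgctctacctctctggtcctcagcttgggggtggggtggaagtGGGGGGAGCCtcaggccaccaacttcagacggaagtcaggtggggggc
Socs3: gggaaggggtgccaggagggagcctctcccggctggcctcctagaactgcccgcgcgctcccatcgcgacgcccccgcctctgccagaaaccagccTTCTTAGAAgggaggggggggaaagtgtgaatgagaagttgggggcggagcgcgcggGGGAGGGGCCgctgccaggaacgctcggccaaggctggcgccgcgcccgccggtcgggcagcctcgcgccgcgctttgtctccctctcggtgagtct

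The motifs searched on both strands were STAT (TTC and GAA with 3 bases of any kind between), κB (GGG and CC with 5 bases of any kind between), AP-1 (TGANTCA) and CRE (TGAC followed directly by GTCA). *Il6* held κB matches at -85 to -76 and, on both strands overlapping each other, at -44 to -34, and an AP-1 match at -249 to -243. *Lif* held κB matches at -247 to -238, -178 to -168 (3 that overlap) and -48 to -39, and an AP-1 match at -228 to -222. *Socs3* was the only one of the 9 genes with a STAT match, at -154 to -146, and had a κB match at -97 to -88. Matches were not confined to genes that responded to the cytokines. *Lifr*, with no cytokine call, held 3 and 6 κB matches at its starts, and *Osmr*, listed at 0, held 3 and 1 AP-1 match. *Il6st* and *Il6ra*, which rose with the cytokines, held 1 and 2 κB matches. A κB match was present in 50.8% of all 32851 promoter windows in the table, a STAT match in 8.30%, an AP-1 match in 7.81% and a CRE in 1.79%. No match overlapped one of another motif, and none of the 4 motifs was found in the window of *Stat3*. A match describes letters in this window and was not tested as a binding site.

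**Figure D1:**
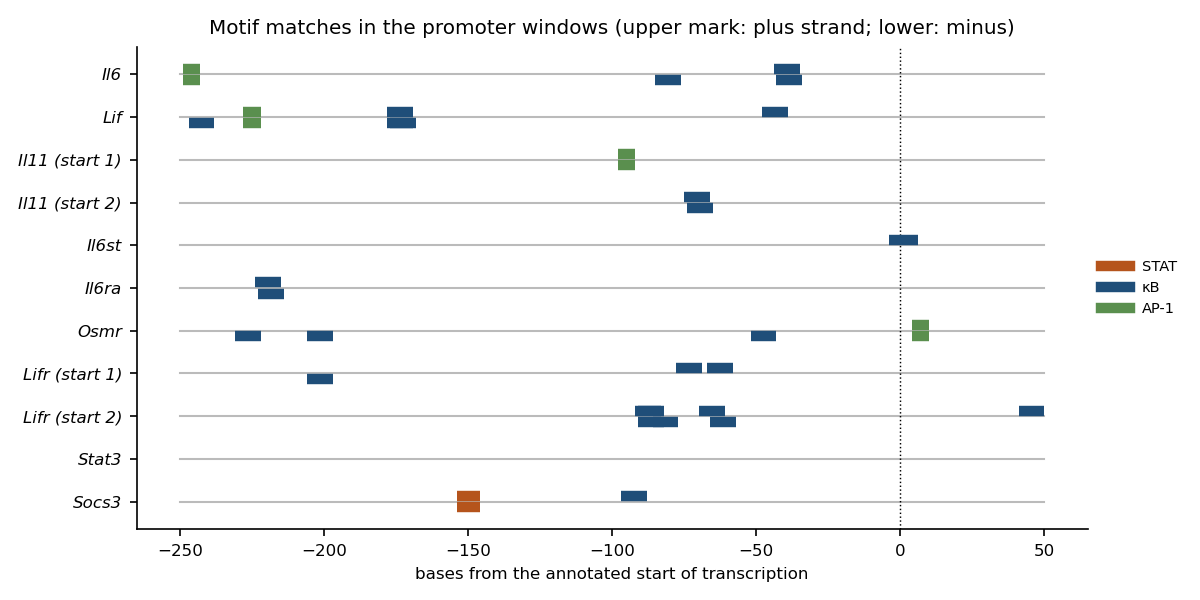
Positions of motif matches in the 11 promoter windows of 9 genes, in bases from the annotated start (dotted line). Marks above a line are on the plus strand relative to the gene and marks below it on the minus strand. κB matches occur in 9 of the windows, the STAT match is in *Socs3* alone, and *Stat3* has no mark.

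The ligand *Il6* was switched on by the cytokines and was highest after knockdown. The gene (NCBI Gene 16193) lies at chr5:30218112-30224973 in GRCm39, the build of all gene positions here. In medium no *Il6* fragment was counted in any of the 3 shRNA-NC libraries. The shRNA-*Ddx5* libraries in medium held 0.266, 0.825 and 0.681 FPKM, which rest on 5, 17 and 14 fragments. With cytokines *Il6* reached 29.9, 27.7 and 18.0 FPKM in shRNA-NC and 79.9, 86.4 and 97.1 FPKM in shRNA-*Ddx5* cells. The 4 groups did not overlap, and the shRNA-*Ddx5* libraries were above the shRNA-NC libraries in both conditions. In bulk RNA, more cells with a transcript and more transcript per cell cannot be told apart. Against the limit of 3 fragments over the shRNA-NC medium group (0.0470 FPKM), *Il6* was at least 537-fold higher with cytokines in shRNA-NC cells. In shRNA-*Ddx5* cells the rise was 149-fold (log2 fold change 5.82, SE 0.18, adjusted p = 1.2e-09). *Il6* passed the filter for testing (1 FPKM in 3 libraries) only through the cytokine libraries, where it was high. This p-value thus only describes the gene. With cytokines the knockdown mean of 87.8 ± 8.72 FPKM (SD, n = 3) was 3.48 times the control mean of 25.2 ± 6.32 (log2 fold change 1.79, SE 0.18, adjusted p = 1.8e-05). In medium it was at least 12.6-fold higher after knockdown (log2 fold change 0.65, SE 0.18, adjusted p = 0.011), at a level below 1 FPKM. *Il6* overlaps a noncoding locus on the other strand, *A230098N10Rik*, with 0 to 10 fragments per library, and since the strandedness of the counting is not stated, reads from the overlap cannot be told apart. Limits such as these cover counting error only.

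*Lif*, which encodes leukemia inhibitory factor, moved the other way after knockdown when cytokines were present. It lies at chr11:4207568-4222514 (Gene 16878). In medium it was near the floor in all cells, with 0.151, 0.0360 and 0.0365 FPKM in shRNA-NC and 0.122, 0.101 and 0.0709 FPKM in shRNA-*Ddx5* libraries. Cytokines raised it to 8.74, 7.18 and 5.56 FPKM in shRNA-NC cells but to 3.05, 3.50 and 2.88 FPKM in shRNA-*Ddx5* cells. Each shRNA-*Ddx5* library with cytokines was below each shRNA-NC library with cytokines and above all libraries in medium. The ratio of the means with cytokines to those in medium was 96.3 in shRNA-NC and 32.0 in shRNA-*Ddx5* cells, ratios that rest on 24 and 28 fragments in medium. Without shRNA-NC medium replicate 1, which held 17 of the 24, the first ratio was 198. *Lif* too passed the filter only through the cytokine libraries, where it was high. With cytokines *Lif* was 2.28-fold lower after knockdown (log2 fold change -0.96, SE 0.13, adjusted p = 0.00015), and in medium the difference was 0.03 (95% interval -0.25 to 0.32, adjusted p = 0.86).

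*Clcf1*, which encodes cardiotrophin-like cytokine factor 1, was the ligand with the highest level in medium. It lies at chr19:4264292-4273559 (Gene 56708). It stood at 8.37, 8.66 and 4.39 FPKM in shRNA-NC and 6.28, 5.82 and 5.99 FPKM in shRNA-*Ddx5* cells. With cytokines the shRNA-NC libraries rose to 20.6, 14.7 and 18.1 FPKM, and the shRNA-*Ddx5* libraries held 5.06, 4.87 and 5.37 FPKM. The control cells thus separated fully from all other groups with cytokines, and the knockdown cells did not pass the test for a cytokine effect (log2 fold change -0.21, 95% interval -0.63 to 0.22, adjusted p = 0.47). In shRNA-NC cells the rise was 2.49-fold (log2 fold change 1.24, SE 0.19, adjusted p = 0.00056). With cytokines *Clcf1* was 3.49-fold lower after knockdown (log2 fold change -1.61, SE 0.19, adjusted p = 5.9e-05). In medium the knockdown difference was -0.16 (adjusted p = 0.51), and without shRNA-NC medium replicate 3, the shallowest library, it was -0.44 and passed (adjusted p = 0.012). *Clcf1* overlaps an antisense noncoding locus with 12 to 62 fragments per library, and the strandedness of the counting is not stated.

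*Il11*, the gene of interleukin-11 (Gene 16156, chr7:4775372-4785877), stayed between 0.0689 and 0.292 FPKM in all 12 libraries, with 3 to 15 fragments each, and was not tested. Its group means were 0.122 and 0.112 FPKM in medium and 0.172 and 0.128 with cytokines, and the groups overlapped. It also overlaps *Tmem190* on the other strand (9 to 22 fragments), so its few fragments cannot be assigned with certainty.

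**Figure D2:**
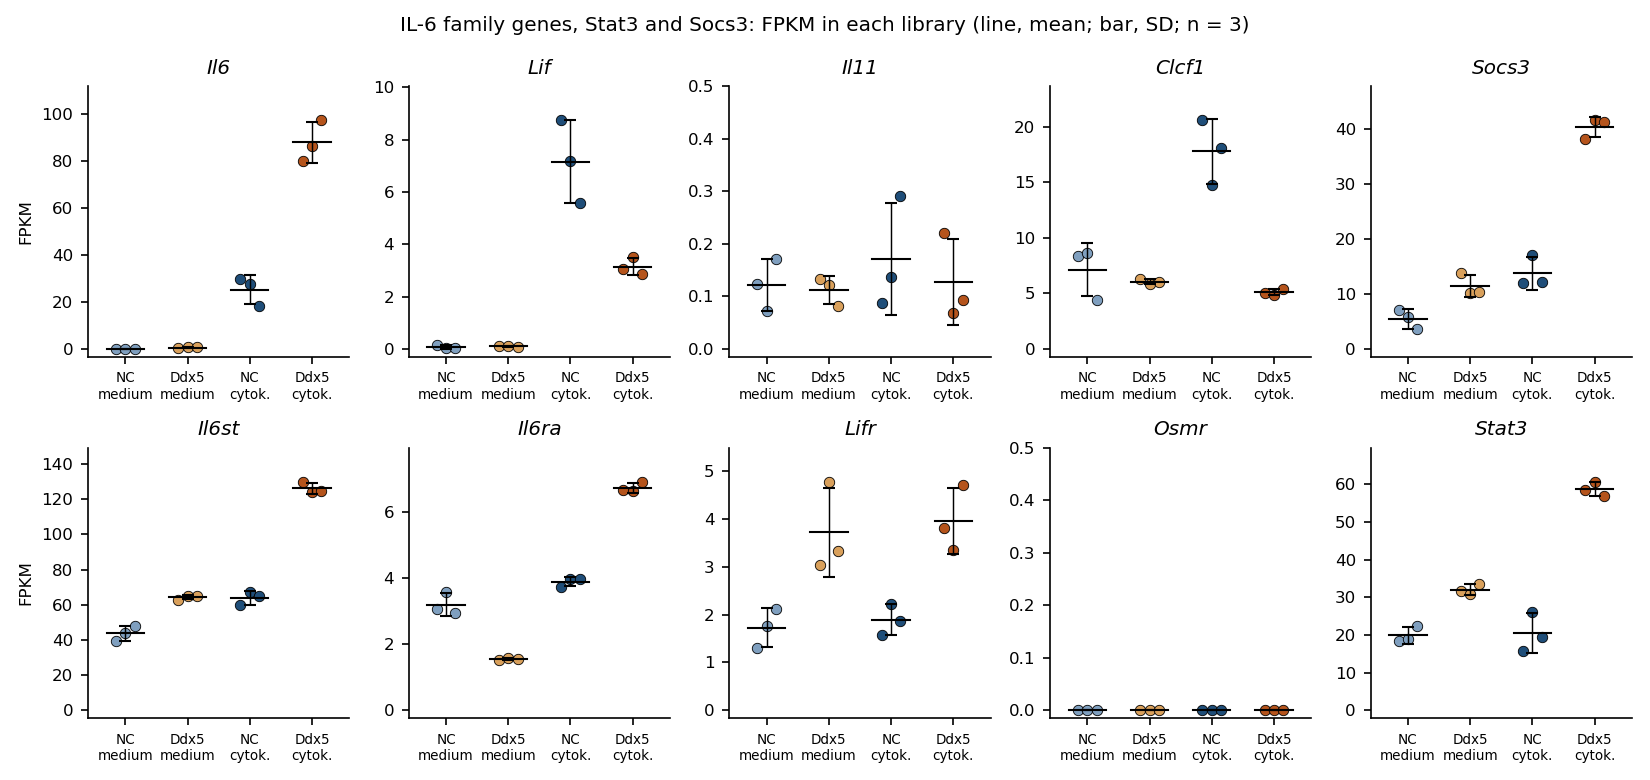
FPKM of the 10 genes in each library, with a panel and a linear axis of its own for each gene. Points are libraries, lines are group means and bars the SD (n = 3). *Il6*, *Il6st*, *Il6ra*, *Stat3* and *Socs3* were highest in the 3 shRNA-*Ddx5* libraries with cytokines, *Lif* and *Clcf1* in the shRNA-NC libraries with cytokines, and *Osmr* was at 0 in all.

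The gp130 gene *Il6st* (Gene 16195, chr13:112600604-112643394) was the most abundant of the 10 genes in every group, and rose with the cytokines and with the knockdown. It was 39.7, 43.7 and 48.2 FPKM in shRNA-NC and 63.0, 65.0 and 64.8 FPKM in shRNA-*Ddx5* cells in medium. With cytokines the values were 59.7, 67.3 and 64.8 FPKM and 129.9, 124 and 125 FPKM. The knockdown cells in medium overlapped the control cells with cytokines, and the knockdown cells with cytokines lay above every other library. The cytokine effect was 0.54 (SE 0.08, adjusted p = 0.00048) in shRNA-NC and 0.96 (SE 0.08, adjusted p = 4.4e-06) in shRNA-*Ddx5* cells on the log2 scale. The knockdown effect was 0.55 (adjusted p = 0.00027) in medium and 0.97 (adjusted p = 5.4e-06) with cytokines, or 1.47-fold and 1.97-fold.

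*Il6ra*, the gene of the IL-6 binding chain (Gene 16194, chr3:89776631-89820503), was the only tested member whose knockdown effect passed the test in opposite directions in the 2 conditions. In medium it was 3.06, 3.59 and 2.94 FPKM in shRNA-NC and 1.51, 1.59 and 1.54 FPKM in shRNA-*Ddx5* cells. With cytokines it was 3.72, 3.97 and 3.97 FPKM in shRNA-NC and 6.64, 6.63 and 6.90 FPKM in shRNA-*Ddx5* cells. The shRNA-*Ddx5* libraries were thus the lowest of all in medium and the highest of all with cytokines. In medium *Il6ra* fell by 0.72 on the log2(FPKM + 1) scale after knockdown (SE 0.08, adjusted p = 3.3e-05), and its mean FPKM was 2.06-fold lower. With cytokines it rose by 0.66 (SE 0.08, adjusted p = 5.3e-05, 1.73-fold). The cytokine effect in shRNA-*Ddx5* cells was 4.34-fold (log2 fold change 1.599, SE 0.08, adjusted p = 4.6e-08). In shRNA-NC cells it was 1.22-fold (0.22, SE 0.08, adjusted p = 0.045). That last call was lost (adjusted p from 0.064 to 0.13) when any of 8 of the 12 libraries was left out, namely all but shRNA-NC medium replicate 2, shRNA-*Ddx5* medium replicates 1 and 2 and shRNA-NC cytokines replicate 1.

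*Lifr*, the gene of the LIF receptor (Gene 16880, chr15:7120091-7226970), passed the test for the knockdown in both conditions and for the cytokines in neither kind of cells. It was 1.31, 1.76 and 2.12 FPKM in shRNA-NC and 3.04, 4.77 and 3.33 FPKM in shRNA-*Ddx5* cells in medium, and 1.58, 2.22 and 1.88 FPKM and 3.81, 3.34 and 4.71 FPKM with cytokines. The 2 kinds of cells did not overlap in either condition, whereas libraries with and without cytokines overlapped in both. Its knockdown effect was 2.15-fold in medium (log2 fold change 0.78, SE 0.16, adjusted p = 0.0024) and 2.09-fold with cytokines (0.77, SE 0.16, adjusted p = 0.0026). The cytokine effects were 0.09 (95% interval -0.27 to 0.45) in shRNA-NC and 0.08 (95% interval -0.28 to 0.44) in shRNA-*Ddx5* cells.

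*Osmr*, which encodes the oncostatin M receptor (Gene 18414, chr15:6843049-6904434), was listed at 0 in all 12 libraries, that is, in 208306182 fragments. A count of 0 allows up to 3 fragments, or 0.0250 to 0.0342 FPKM in a single library. An overlapping antisense noncoding locus was also at 0. The protein-coding genes on either side on chromosome 15, *Rictor* (2.19 to 9.83 FPKM) and *Lifr* (1.31 to 4.77 FPKM), were both counted. Whether transcripts of *Osmr* were absent or were not assigned to the gene was not tested.

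*Stat3* (Gene 20848, chr11:100777632-100830447) rose after knockdown in both conditions, and rose with the cytokines past the test in the knockdown cells. It was 18.3, 18.9 and 22.5 FPKM in shRNA-NC and 31.6, 30.8 and 33.7 FPKM in shRNA-*Ddx5* cells in medium, and 15.7, 26.2 and 19.5 FPKM and 58.4, 60.6 and 56.9 FPKM with cytokines. The shRNA-NC libraries with cytokines spread over and beyond the range of those in medium, and the shRNA-*Ddx5* libraries with cytokines were above all others. The knockdown effect was 1.61-fold in medium (log2 fold change 0.66, SE 0.15, adjusted p = 0.0032) and 2.87-fold with cytokines (1.503, SE 0.15, adjusted p = 1.4e-05). The cytokine effect was 0.02 (95% interval -0.30 to 0.34, adjusted p = 0.94) in shRNA-NC and 0.85 (SE 0.15, adjusted p = 0.0011) in shRNA-*Ddx5* cells. A noncoding locus on its other strand held 1 to 14 fragments per library.

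*Socs3*, the feedback inhibitor (Gene 12702, chr11:117856905-117860192) whose promoter window held the STAT match, rose with the cytokines and with the knockdown. It was 7.10, 5.82 and 3.53 FPKM in shRNA-NC and 13.7, 10.1 and 10.4 FPKM in shRNA-*Ddx5* cells in medium. With cytokines it was 11.97, 17.1 and 12.1 FPKM and 38.1, 41.5 and 41.2 FPKM. Medium libraries of the knockdown cells overlapped cytokine libraries of the control cells, and the knockdown cells with cytokines lay apart above them. The cytokine effect was 2.50-fold in shRNA-NC (log2 fold change 1.21, SE 0.20, adjusted p = 0.00095) and 3.54-fold in shRNA-*Ddx5* cells (1.75, SE 0.20, adjusted p = 5.9e-05). The knockdown effect was 2.08-fold in medium (0.96, SE 0.20, adjusted p = 0.0025) and 2.93-fold with cytokines (1.504, SE 0.20, adjusted p = 0.00013).

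**Figure D3:**
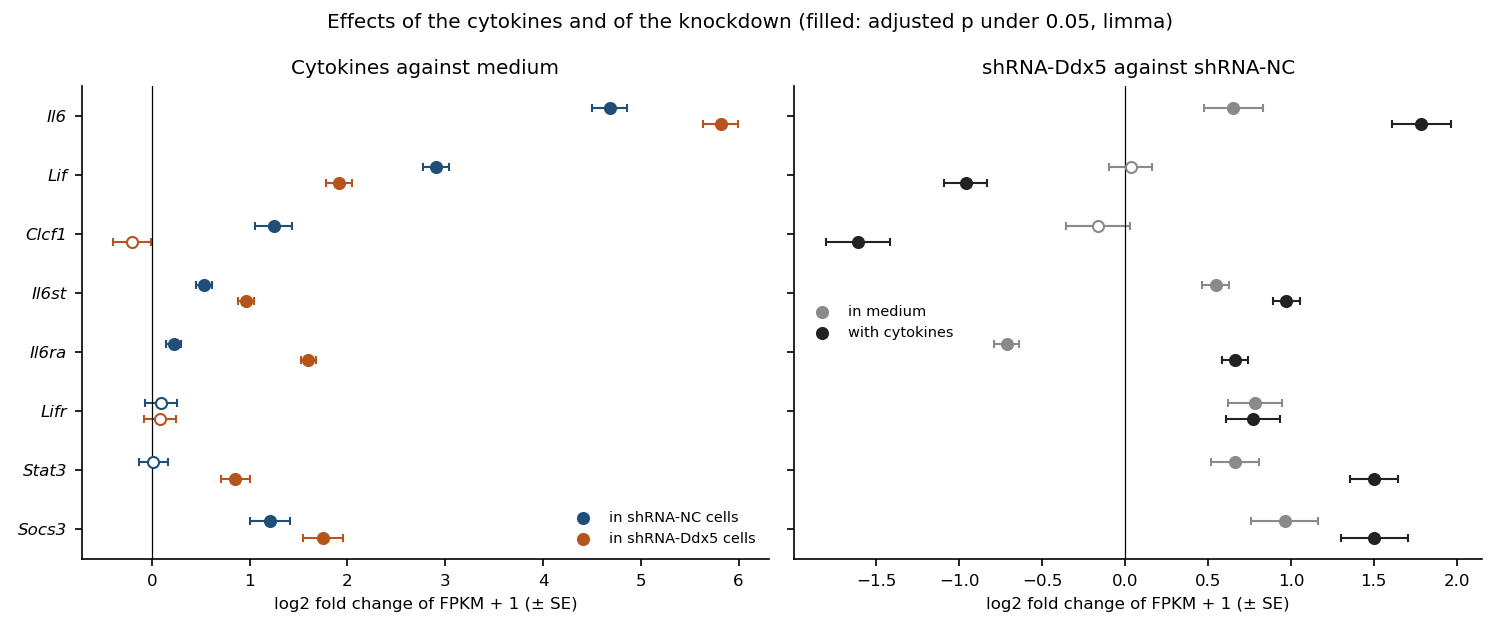
Log2 fold changes (± SE) of the 8 tested genes for the cytokines in each kind of cells (left) and for the knockdown in each condition (right), on the log2(FPKM + 1) scale. Filled points passed an adjusted p of 0.05. *Clcf1* rose with cytokines in shRNA-NC cells but not past the test in shRNA-*Ddx5* cells, and *Il6ra* lay at -0.72 and 0.66 for the knockdown in medium and with cytokines.

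The next question was whether the knockdown effect differed between the 2 conditions, which is the same as asking whether the cytokine effect differed between the 2 kinds of cells. It did for 6 of the 8 genes tested. The knockdown effect with cytokines was higher than that in medium for *Il6ra* by 1.38 (SE 0.11, adjusted p = 6.3e-05), *Il6* by 1.13 (SE 0.25, adjusted p = 0.019), *Stat3* by 0.84 (SE 0.21, adjusted p = 0.030) and *Il6st* by 0.43 (SE 0.11, adjusted p = 0.043). It was lower for *Clcf1* (-1.45, SE 0.27, adjusted p = 0.0082) and *Lif* (-0.99, SE 0.19, adjusted p = 0.0078). The *Lif* call was lost with a pseudocount of 0.1 (-1.38, adjusted p = 0.059) and with voom weights (-1.77, adjusted p = 0.16). For *Socs3* the difference was 0.54 (95% interval -0.09 to 1.17, adjusted p = 0.28), and for *Lifr* -0.01 (95% interval -0.52 to 0.50, adjusted p = 0.99). Among all genes tested, 3.46% rose and 4.75% fell in this test. The value of *Il6* depends on the scale, and its control level in medium is 0. With a pseudocount of 0.1 in place of 1 it was -0.86 (adjusted p = 0.26), and with voom weights on the recovered fragments -2.75 (adjusted p = 0.16). It also missed the threshold without shRNA-*Ddx5* cytokines replicate 3 (1.06, adjusted p = 0.058). The *Stat3* call was lost with any of 9 of the libraries left out (adjusted p from 0.053 to 0.072), all but shRNA-NC medium replicate 1 and shRNA-NC cytokines replicates 1 and 2. The *Il6st* call was lost with any of 10 left out (0.060 to 0.11), all but shRNA-NC medium replicate 1 and shRNA-NC cytokines replicate 2. It was also lost with a pseudocount of 0.1 (adjusted p = 0.053), the filter in all libraries (0.051), quantile normalization (0.087), a replicate block (0.073) and voom weights (0.052). The *Stat3* call was also lost with no filter (adjusted p = 0.063).

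**Figure D4:**
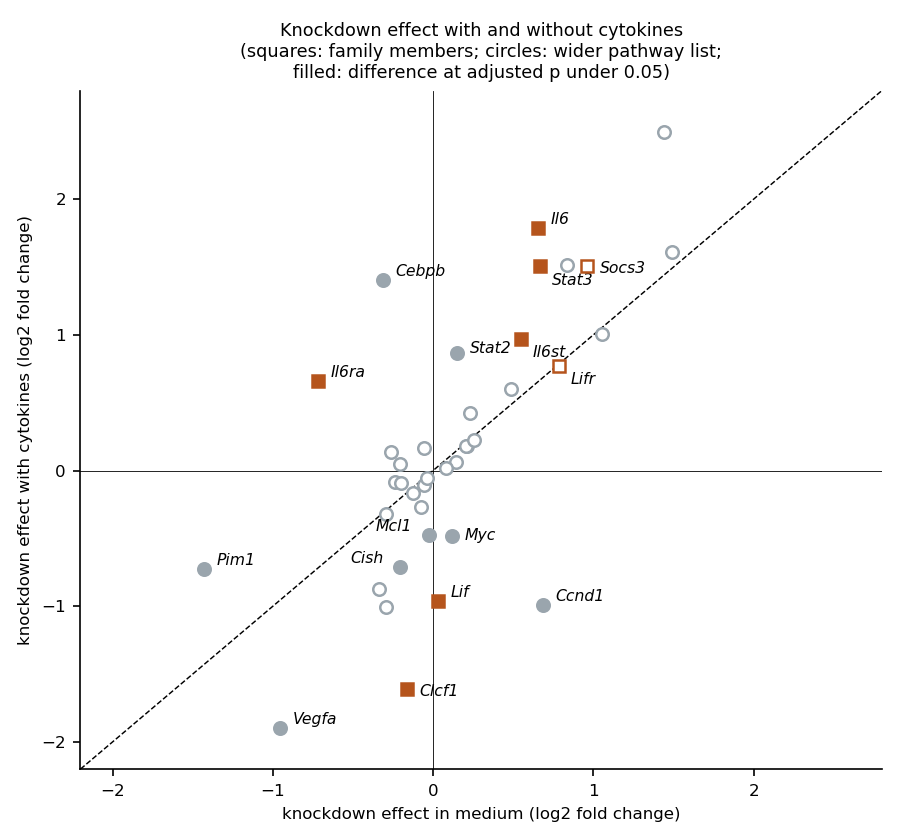
Knockdown effect in medium (horizontal) and with cytokines (vertical) as log2 fold changes on the log2(FPKM + 1) scale, for the 8 tested family members (squares) and the 31 tested genes of the wider pathway (circles). Filled symbols differed between the conditions at an adjusted p under 0.05, and the dashed line marks equal effects. *Il6ra* and *Cebpb* lie above it and to the left of 0, and *Clcf1*, *Lif* and *Ccnd1* well below it.

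Counted over the list, 8 of the 10 genes passed the filter of 1 FPKM in 3 libraries, and *Il6* and *Lif* passed through the cytokine libraries alone, so these counts only describe the list. The cytokines raised 6 genes in shRNA-NC cells (*Il6*, *Lif*, *Clcf1*, *Il6st*, *Il6ra*, *Socs3*) and 6 in shRNA-*Ddx5* cells (*Stat3* in place of *Clcf1*), and lowered none. Among all 12368 tested genes the cytokines raised 18.6% and lowered 15.2% in shRNA-NC cells, and 13.5% and 13.5% in shRNA-*Ddx5* cells. The knockdown raised 5 and lowered 1 in medium, where 25.3% of all genes rose and 21.7% fell. With cytokines it raised 6 and lowered 2, where 23.5% rose and 22.1% fell. The median log2 fold change of the 8 genes was 0.87 for the cytokines in shRNA-NC and 1.28 in shRNA-*Ddx5* cells, and 0.60 and 0.87 for the knockdown in medium and with cytokines. The median of all tested genes was between 0.00014 and 0.03 in these 4 comparisons.

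The order of the levels shifted with the groups. In shRNA-NC cells in medium *Il6st* (43.9 FPKM) and *Stat3* (19.9) led, followed by *Clcf1*, *Socs3* and *Il6ra*, neighbours whose ranges overlapped (7.14, 5.49 and 3.19), and by *Lifr* (1.73). Below 1 FPKM came *Il11* and *Lif*, which also overlapped, and *Il6* and *Osmr* at 0. In shRNA-*Ddx5* cells in medium the order was *Il6st*, *Stat3*, *Socs3*, *Clcf1*, *Lifr* and *Il6ra*, and none of these neighbours overlapped. With cytokines *Il6* was second behind *Il6st* in both kinds of cells. In shRNA-NC cells *Il6*, *Stat3*, *Clcf1* and *Socs3* overlapped from neighbour to neighbour, whereas in shRNA-*Ddx5* cells *Il6st*, *Il6*, *Stat3*, *Socs3*, *Il6ra* and *Clcf1* were each apart from the next, and *Lifr* and *Lif* overlapped.

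Ratios within libraries show how the mix of ligands and receptor chains differed. With cytokines there was 3.51 ± 0.319 (SD, n = 3) times as much *Il6* as *Lif* in shRNA-NC and 28.2 ± 4.87 (SD, n = 3) times as much in shRNA-*Ddx5* cells. The ratio of *Il6* to *Clcf1* was 1.44 ± 0.442 and 17.2 ± 1.24. The lowest knockdown ratio was above the highest control ratio for both. *Il6st* exceeded *Il6ra* by 13.9 ± 2.25 and 41.5 ± 0.571 times in medium and by 16.4 ± 0.481 and 18.8 ± 0.742 times with cytokines, in shRNA-NC and shRNA-*Ddx5* cells. *Socs3* relative to *Stat3* was 0.284 ± 0.117 and 0.356 ± 0.0673 in medium, and 0.679 ± 0.0728 and 0.687 ± 0.0357 with cytokines. In each condition the *Socs3* to *Stat3* ratios of the 2 kinds of cells overlapped.

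The wider pathway was described with a list of 45 genes, of which 31 passed the filter. Most other ligands and receptors were close to undetected. *Osm*, *Ctf2*, *Il31* and *Stat4* were listed at 0 in every library, and *Il27*, *Ebi3*, *Il27ra* and *Il31ra* had at most 3 fragments in any. *Cntfr*, the gene of the alpha chain that CLCF1 uses, was named after its values were seen and had at most 7 fragments in any library. *Il11ra1*, the receptor chain for interleukin-11, rose after knockdown (1.05 and 1.00) and fell with cytokines in both kinds of cells (-0.59 and -0.64, adjusted p = 0.0090 and 0.0069).

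Of 5 kinases and adaptors, *Jak2* and *Tyk2*, both receptor-bound kinases, and *Ptpn11*, the gene of the phosphatase SHP2, rose with cytokines in both kinds of cells. The *Jak2* effects were 1.57 and 1.72 on the log2 scale, and its knockdown effects were -0.24 (adjusted p = 0.14) in medium and -0.09 (adjusted p = 0.59) with cytokines. Of 4 tested STAT genes other than *Stat3*, *Stat2* and *Stat6* rose with cytokines in both kinds of cells. *Stat2*, the gene of a factor in interferon signalling, stood at 22.4 to 23.2 FPKM in shRNA-*Ddx5* cells with cytokines against 10.8 to 13.2 in shRNA-NC cells (log2 fold change 0.86, adjusted p = 4.4e-05), and its knockdown effect in medium was 0.15 (adjusted p = 0.23). Some of the smaller effects were lost with a library left out: the *Stat6* rise in shRNA-NC cells (0.25, adjusted p = 0.038) with any of 8 libraries (adjusted p from 0.054 to 0.11), all but the 3 of shRNA-*Ddx5* cells in medium and shRNA-NC cytokines replicate 1.

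Among the inhibitors, *Socs1* was raised by the cytokines to ranges that overlapped. It was 2.43 to 4.71 FPKM in shRNA-NC and 3.31 to 3.602 FPKM in shRNA-*Ddx5* cells in medium, and 10.5 to 16.6 and 15.2 to 16.5 FPKM with cytokines. Its knockdown effects were -0.06 (adjusted p = 0.84) and 0.17 (adjusted p = 0.49). *Cish*, another member of the SOCS family and a usual target of STAT5, was 1.87 to 2.08 FPKM in shRNA-NC and 0.732 to 0.879 FPKM in shRNA-*Ddx5* cells with cytokines (log2 fold change -0.71, adjusted p = 5.6e-05). *Cish* reached 1 FPKM only in the shRNA-NC cytokine libraries. It thus passed the filter through the group where it was high, and this p-value only describes it. *Pias1* and *Pias3*, genes of inhibitors of activated STATs, fell with cytokines in both kinds of cells. The *Pias1* calls (-0.40 and -0.41) were each lost with any of 4 libraries of the groups compared left out (adjusted p from 0.058 to 0.079 in shRNA-NC and from 0.059 to 0.090 in shRNA-*Ddx5* cells), namely medium replicates 2 and 3 in both, with cytokines replicates 2 and 3 for shRNA-NC and 1 and 2 for shRNA-*Ddx5* cells. *Adam10*, the gene of a protease that sheds the IL-6 receptor, fell with cytokines in shRNA-NC (-0.76, adjusted p = 0.00048) and shRNA-*Ddx5* cells (-0.36, adjusted p = 0.038). That second call was lost with any of 6 libraries left out (adjusted p from 0.053 to 0.14), those of the shRNA-*Ddx5* cytokines group, shRNA-*Ddx5* medium replicates 2 and 3 and shRNA-NC medium replicate 2.

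Of 14 genes often used as STAT3 targets, 13 were tested. Cytokines raised 11 of them in shRNA-NC cells and 7 in shRNA-*Ddx5* cells, where 18.6% and 13.5% of all genes rose, and lowered none. The knockdown raised 4 and lowered 3 in medium, and raised 4 and lowered 7 with cytokines, where 25.3% of all genes rose and 21.7% fell in medium and 23.5% and 22.1% with cytokines. The shares in medium were thus near those of all genes. Among the 3 lowered in medium, the *Pim3* call (-0.34, adjusted p = 0.037) was lost with any of 5 libraries left out (adjusted p from 0.052 to 0.14). These were shRNA-NC medium replicates 1 and 2, shRNA-*Ddx5* medium replicates 2 and 3 and shRNA-*Ddx5* cytokines replicate 3. *Fos*, like *Cish*, reached 1 FPKM only in the shRNA-NC cytokine libraries, so these 2 genes passed the filter through the group where they were high. The median knockdown effect with cytokines was -0.48 on the log2 scale, beside 0.01 over all genes. Those raised after knockdown with cytokines were the C/EBP factors *Cebpb* and *Cebpd*, *Hif1a*, the gene of the hypoxia factor subunit, and *Timp1*, the gene of a metalloproteinase inhibitor. Those lowered were *Fos*, *Myc*, *Mcl1*, *Pim1*, *Pim3*, *Ccnd1* and *Vegfa*.

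*Cebpb* was 79.5, 129 and 100.5 FPKM in shRNA-NC and 249, 288 and 272 FPKM in shRNA-*Ddx5* cells with cytokines, and *Cebpd* was 9.75, 29.3 and 18.9 against 97.8, 110.02 and 104 FPKM. The *Cebpb* groups overlapped in medium (28.5 to 44.5 and 27.3 to 36.4 FPKM), and its knockdown effect differed between the conditions by 1.72 (SE 0.28, adjusted p = 0.0038). *Timp1* followed the knockdown in both conditions (1.49 in medium and 1.61 with cytokines, adjusted p = 7.6e-05 and 4.1e-05). *Vegfa*, the gene of an endothelial growth factor, was 71.1, 43.2 and 53.9 FPKM in shRNA-NC but 12.8, 14.3 and 15.02 FPKM in shRNA-*Ddx5* cells with cytokines. *Ccnd1*, the gene of cyclin D1, was higher after knockdown in medium (0.68, adjusted p = 0.0021) and lower with cytokines (-0.99, adjusted p = 0.00018). *Myc* and *Mcl1* rose with cytokines in shRNA-NC cells (0.69 and 0.64), and in shRNA-*Ddx5* cells the effects were 0.09 (adjusted p = 0.47) and 0.19 (adjusted p = 0.13).

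**Figure D5:**
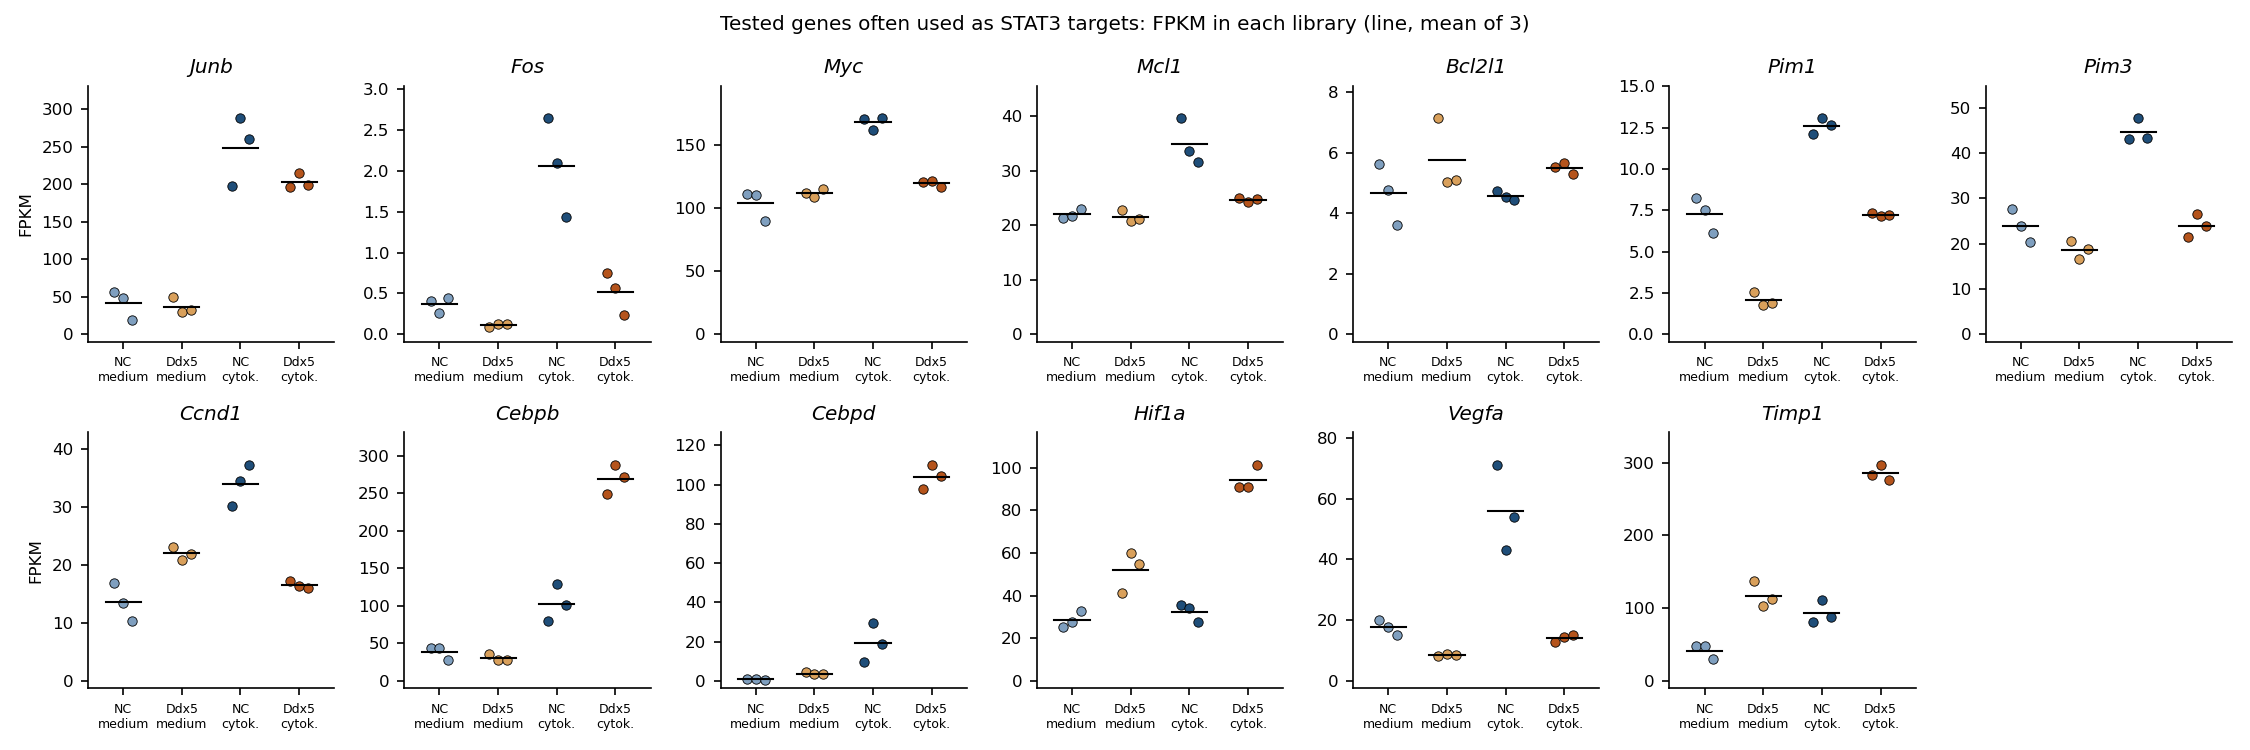
FPKM of the 13 tested genes often used as STAT3 targets, by library, with a linear axis for each gene (points are libraries and lines means of 3). *Cebpb*, *Cebpd*, *Hif1a* and *Timp1* were highest in shRNA-*Ddx5* cells with cytokines, whereas *Fos*, *Myc*, *Mcl1*, *Pim1*, *Pim3*, *Ccnd1* and *Vegfa* were highest in shRNA-NC cells with cytokines.

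Over the whole list, the cytokines raised 20 and lowered 4 of the 31 tested genes in shRNA-NC cells and raised 16 and lowered 5 in shRNA-*Ddx5* cells, beside 18.6% and 15.2% of all genes in shRNA-NC and 13.5% and 13.5% in shRNA-*Ddx5* cells. The knockdown raised 7 and lowered 4 in medium, and raised 7 and lowered 9 with cytokines. Among those raised, *Stat5a* reached 1 FPKM only in shRNA-*Ddx5* libraries (1.32 to 1.93 FPKM, against 0.614 to 0.967 in shRNA-NC libraries). It thus passed the filter through the cells where it was high. *Fos* and *Cish*, among those lowered with cytokines, passed it through the shRNA-NC cytokine libraries alone. Both were also among the genes that the cytokines raised in shRNA-NC cells. Of all genes, 25.3% rose and 21.7% fell in medium and 23.5% and 22.1% with cytokines, so the share raised by the knockdown was near that of all genes in both conditions. The median log2 fold changes were 0.55 and 0.34 for the cytokines and -0.04 and 0.02 for the knockdown. The knockdown effect differed between the conditions for 8 genes, 3 of them higher with cytokines (*Stat2*, *Pim1*, *Cebpb*) and 5 lower (*Cish*, *Myc*, *Mcl1*, *Ccnd1*, *Vegfa*).

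The genes whose pattern over the 12 libraries was most like that of a member were found by Pearson's r of log2(FPKM + 1). The libraries fall into 4 groups, so these values describe a shared order of group means. For *Il6* they were *Fas* (r = 0.997), *Ccl20* (0.996), *Syt7* (0.996), *Ereg* (0.995) and *Parp14* (0.994). *Fas*, the gene of a death receptor, had means of 0.271, 1.48, 25.4 and 100.3 FPKM in shRNA-NC and shRNA-*Ddx5* cells in medium and then with cytokines, and the chemokine gene *Ccl20* had 0, 0.0922, 22.1 and 85.7 FPKM. For *Il6st* they included *Slc39a14* (0.992), *Ddx58* (0.992), *Hmgn3* (0.992) and *Akr1b3* (0.991). For *Socs3* they included *Mrpl4* (0.992), *Ifitm3* (0.985), *9130401M01Rik* (0.980) and *Rhobtb2* (0.979). Between members, r was highest for *Il6st* with *Socs3* (0.945) and with *Stat3* (0.904), and lowest for *Clcf1* with *Stat3* (-0.67).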

How the data were processed

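RNA-seq of 12 ATDC5 cultures was analysed. Groups were taken from the sample labels. The authors aligned poly-A selected, paired 150 nt reads (1 µg RNA per library) and counted fragments with featureCounts (the processing notes name HISAT2 2.0.5, featureCounts 1.5.0-p3, DESeq2 1.20.0 and mm10, but gene positions follow GRCm39). The deposited values are FPKM, scaled by gene length and a library denominator of 0.957 to 1.08 times the fragments on genes. Each FPKM times gene length was a whole multiple (within 0.001) of a step per library, which gave the fragments.

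log2(FPKM + 1) of the 12368 genes that reached 1 FPKM in 3 or more libraries was fitted with limma 3.58.1 in R 4.3.3 (4 group means, no covariate, eBayes with trend). Unless another setting is named, adjusted p-values are from this fit with Benjamini-Hochberg adjustment over all tested genes and a threshold of 0.05. Differences on this scale understate changes of low genes. The floor of a group or library was set at 3 fragments. The fit was also run on simulated data, in which only the knockdown changed genes, and none of a low mean level. That run does not bear on the calls of genes near the floor. The study describes the replicates of these cells as independent experiments. Alternatives, one at a time, were no filter, the filter in all libraries, a pseudocount of 0.1, quantile normalization, scaling to the sum of fragments, a replicate block, eBayes without trend, the 6 libraries compared alone, voom on the recovered fragments, and leaving out each of the 12 libraries.

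The members, the wider list, the markers and the motifs were chosen with earlier results of these data known. Genes named were the members with all values and genes of the wider list that passed a test or were at the floor, and, for *Il6*, *Il6st* and *Socs3*, the 5 genes most like each in pattern. A few genes of these lists are not reported here. Figures were drawn with matplotlib 3.10.9.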

Additional observations from a re-analysis of the deposited data

Results flagged for a closer look

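The knockdown effect differed between medium and cytokines, by the interaction term of the limma fit at an adjusted p under 0.05, for 14 of the genes described. Among the members the difference (effect with cytokines minus effect in medium, log2) was 1.13 for *Il6*, -0.99 for *Lif*, -1.45 for *Clcf1*, 0.43 for *Il6st*, 1.38 for *Il6ra* and 0.84 for *Stat3*. In the wider list it was 0.71 for *Stat2*, -0.51 for *Cish*, -0.60 for *Myc*, -0.45 for *Mcl1*, 0.70 for *Pim1*, -1.67 for *Ccnd1*, 1.72 for *Cebpb* and -0.95 for *Vegfa*. With each library left out in turn, 7 of the 14 stayed past the threshold every time (*Lif*, *Clcf1*, *Il6ra*, *Stat2*, *Myc*, *Ccnd1*, *Cebpb*). Of them, 6 did so under every alternative in which this difference was tested (all but *Lif*). In the wider list the call of *Mcl1* was lost with any of 7 libraries left out (adjusted p from 0.067 to 0.092), namely shRNA-NC medium replicates 1 and 2, shRNA-*Ddx5* medium replicates 1 and 3 and the shRNA-*Ddx5* cytokines group. *Cish* (0.053 to 0.073), *Pim1* (0.052 to 0.057) and *Vegfa* (0.052 to 0.066) were each lost without shRNA-NC medium replicate 2, shRNA-*Ddx5* medium replicate 3 or shRNA-*Ddx5* cytokines replicate 1, and also without shRNA-*Ddx5* cytokines replicate 3 (*Cish*, *Pim1*) or replicate 2 (*Vegfa*).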

How the results depend on the processing

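The difference between knockdown effects was not fitted with the 6 libraries compared alone, and *Il6* and *Lif* did not pass the filter in all libraries. Of 40 results (a tested member in a comparison), 34 kept their direction and side of the threshold under each of the 21 alternatives in which they were tested. The exceptions were *Il6ra* with cytokines in shRNA-NC cells, *Clcf1* after knockdown in medium, and the differences between knockdown effects of *Il6*, *Lif*, *Il6st* and *Stat3*. *Il6* reversed there, to -0.86 with a pseudocount of 0.1 and -2.75 with voom weights, and *Ptpn11* after knockdown in medium went from 0.21 to -0.023 with quantile normalization. The number of members whose knockdown effect differed between conditions was 6. With FPKM of at least 1 in every library (fewer genes tested) it was 3. There *Il6* and *Lif* were not tested, and the *Il6st* difference missed the threshold (adjusted p = 0.051). The number was also 3 with a pseudocount of 0.1 and with voom weights. With each library left out it ranged from 3 to 6, lowest without shRNA-*Ddx5* cytokines replicate 3, and for the wider list (8 genes) from 4 to 9, at 4 without shRNA-NC medium replicate 2, shRNA-*Ddx5* medium replicate 3 or shRNA-*Ddx5* cytokines replicate 1 and at 5 without shRNA-*Ddx5* cytokines replicate 3. The causes of the other shifts were not tested. In the wider list, 38 of 155 results changed side or direction under some alternative. Genes at a few fragments (*Il11*, and *Lif* and *Il6* in medium) are limited by depth.

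Replicate numbers did not pair the libraries: the correlation of deviations from group means between same-numbered libraries ranged from -0.394 to 0.448, and 3 of 12 libraries correlated best with their own number. With the replicate number as a block, 5, 6, 6 and 8 members passed for the cytokines in shRNA-NC and shRNA-*Ddx5* cells and for the knockdown in medium and with cytokines, and 5 differed between conditions. In the wider list 22, 19, 9, 16 and 6 did. With the block, *Il6ra* with cytokines in shRNA-NC cells (adjusted p = 0.070) and the *Il6st* difference (adjusted p = 0.073) missed the threshold.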
